A study of Mus musculus with 4 samples.

Results

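The genes described here encode proteins of the extracellular matrix other than the chains of collagens I and III. They were taken by gene symbol: every cDNA clone with exactly 1 platform symbol for a collagen chain, laminin, nidogen, fibulin, fibrillin, microfibril-associated protein, lysyl oxidase, collagen-modifying enzyme, small leucine-rich proteoglycan, perlecan, elastin, fibronectin, periostin or SPARC, without Col1a1, Col1a2 and Col3a1. That gave 41 of the 8106 genes measured, from 66 clones, and 25 of the 41 had 1 clone. No lysyl oxidase, fibrillin, periostin, fibromodulin or osteoglycin clone was among them. The symbols were sorted into 14 basement membrane genes, 3 collagen-processing genes, 4 elastic fibre genes, 3 proteoglycans, 12 other collagen chains, 3 glycoproteins (Sparc, Sparcl1 and Fn1) and 2 genes, Mfap1a and Mfap3, that the symbol pattern took by name. MFAP1 is known as a splicing protein of the nucleus and MFAP3 as a membrane protein, so neither is counted as an elastic fibre gene.

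RNA came from both ventricles and the septum of 6 male mice, 12-13 weeks old. They were wild-type, 1-renin mice on a mixed 129Ola/C57BL/6J background, at backcross N5–6. All 6 had 1 kidney removed, ate food with 0.5 mg Na per g and received deoxycorticosterone acetate (DOCA), a mineralocorticoid, for 5 weeks. The 3 high-salt mice drank 1% NaCl during that time, and tap water was given to the 3 low-salt mice, so the comparison is of salt under DOCA and holds no untreated mouse. Each of 4 two-colour arrays set 1 high-salt against 1 low-salt heart: array 1 held pair 1, arrays 2 and 4 held pair 2 with the dyes exchanged, and array 3 held pair 3. High-salt RNA was labelled with Cy3 for arrays 1 and 2 and with Cy5 for arrays 3 and 4. Since arrays 2 and 4 hold the same 2 hearts, their mean counts as 1 replicate, and n is 3 pairs.

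Values are log2 ratios, with base 2 assumed, and a ratio of 1 on this scale is a doubling. They are read as high over low salt, the order of the array titles. That reading is an assumption, since the sources used here do not say whether the 2 arrays of either dye orientation were turned before deposit. Arrays 2 and 4, which hold the same 2 hearts, correlated at Pearson's r of -0.41 over all features as deposited. Without recurring unnamed spots, over 16471 clones, their r was -0.073. Over all features, arrays of opposite orientation correlated at Pearson's r from -0.61 to -0.34, and arrays of 1 orientation at 0.69 and 0.53. Over the 16471 clones without recurring unnamed spots these ranges were -0.37 to -0.073, and 0.57 and 0.43. Genes within an array are not independent replicates. Counts, medians and the means of the genes described at length are therefore also given with the signs of arrays 1 and 2 turned. That reading holds if the table gives Cy5 over Cy3. If it gives Cy3 over Cy5, arrays 3 and 4 are to be turned instead, and every turned mean takes the opposite sign. The deposited values carry no spot intensity, so no level of a gene is known, and a ratio near 0 may come from a gene that did not change or from a spot with little signal. In pieces of ventricle, more cells of a type and more RNA per cell cannot be told apart.

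The matrix is a scaffold made outside cells. Basement membranes are thin sheets of type IV collagen and laminin, joined by nidogens and perlecan, that wrap cardiomyocytes and capillaries. Fibrous matrix between the cells is laid down mostly by fibroblasts: collagen chains are hydroxylated and folded in the endoplasmic reticulum before secretion, small proteoglycans bind the fibrils, and elastic fibres of elastin and microfibrils give recoil. In hearts under pressure load this interstitial matrix is known to expand.

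As deposited, 31 of the 41 genes had a mean above 0, that is 75.6%, against 49.8% of all genes. Their median log2 ratio was 0.24, against -0.00026 over all genes, and the range ran from -0.15 for Mfap1a to 1.50 for Bgn. A value above 0 on all 4 arrays was seen for 16 of the 41 (39.0%), against 7.01% of all genes, and a value below 0 on all 4 for 0 of the 41, against 7.75%. A mean above 0.5 was reached by 9 genes (22.0%, against 1.34% of all genes) and a mean below -0.5 by 0, against 0.753%. Limma's test of the 3 pairs against 0, adjusted by Benjamini-Hochberg over all 8106 genes, called 0 genes (0%) and so 0 of the 41. The smallest adjusted p among the 41 was 0.66, for Sparc. At an unadjusted p under 0.05, 13 of the 41 were higher, 31.7% against 2.81% of all genes, and 0 were lower, against 2.63%. Without pair 2 the count was 7, and without pair 1 or pair 3 it was 11 or 13. These genes were chosen with earlier results of these arrays known, so the counts describe them and are no independent evidence of a direction.

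With arrays 1 and 2 turned, most of these genes lay below 0. Then 13 of the 41 means (31.7%) lay above 0 and 28 below, against 46.7% of all genes above 0, and the median was -0.063. On all 4 arrays 3 genes lay above 0 and 7 below, where 12.7% and 18.7% of all genes did, and limma again called 0. At an unadjusted p under 0.05, 1 gene was higher and 6 were lower, that is 2.44% and 14.6%, where 6.97% and 13.8% of all genes lay. No test was made of these differences in share.

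**Figure D1:**
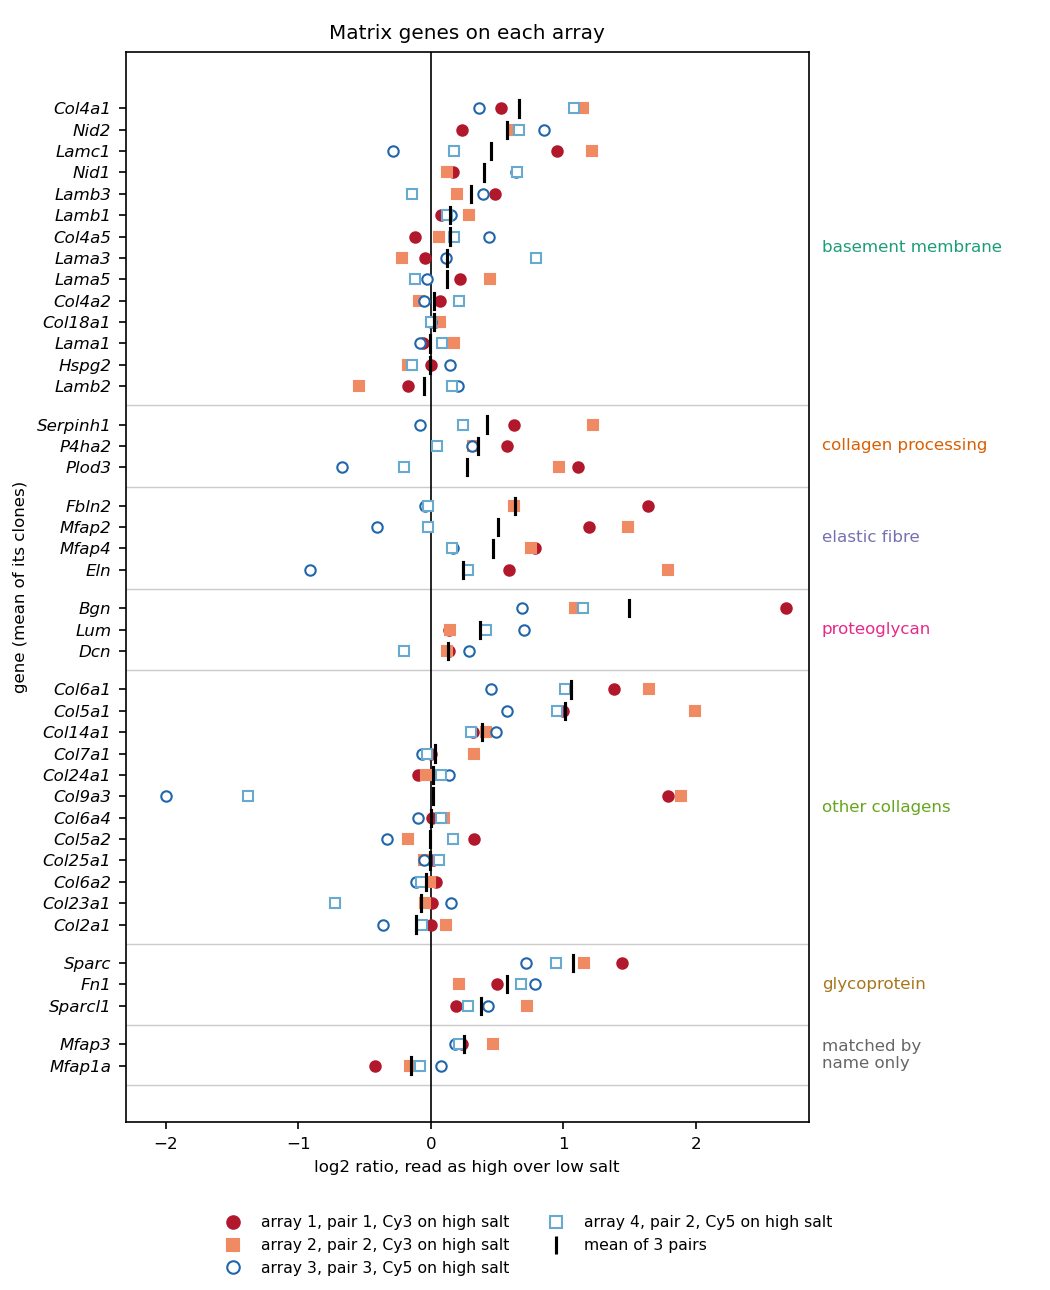
Log2 ratio (x axis, read as high over low salt) of each of the 41 genes (y axis) on the 4 arrays, with filled symbols for Cy3 on high salt, open symbols for Cy5 on high salt, squares for the 2 arrays of pair 2 and a black bar for the mean of 3 pairs. Bgn, Col6a1, Col5a1 and Sparc lay above 0 on every array with means over 1, while Col9a3 lay near 1.8 with Cy3 and below -1.3 with Cy5 on high salt.

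As deposited, the genes with the 4 highest means were Bgn, Sparc, Col6a1 and Col5a1, 1 proteoglycan, 1 glycoprotein and 2 collagen chains. Turned, this order did not hold: their means were -0.65, -0.28, -0.42 and -0.31, and the highest were Nid1 at 0.25, Lamb2 at 0.24 and Lum at 0.23. The 250 bases before the annotated start are shown for Bgn, Sparc, Col6a1 and Col5a1, picked by their means as deposited. They come from RefSeq (GRCm38.p6) and run 5′ to 3′ on the gene's own strand. Bgn lies at chrX:73483351-73483600 on the plus strand, Sparc at chr11:55420081-55420330 on the minus strand, Col6a1 at chr10:76726045-76726294 on the minus strand and Col5a1 at chr2:27886175-27886424 on the plus strand. Capitals mark matches on either strand to the GC box GGGCGG, the CCAAT box CCAAT or the TATA box TATAAA, 3 motifs of many promoters that do not overlap each other by sequence.
Bgn: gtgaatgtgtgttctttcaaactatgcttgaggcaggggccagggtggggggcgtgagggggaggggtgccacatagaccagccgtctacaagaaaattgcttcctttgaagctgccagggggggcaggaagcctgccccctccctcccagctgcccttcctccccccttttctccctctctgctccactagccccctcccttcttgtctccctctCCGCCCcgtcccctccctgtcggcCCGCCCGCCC
Sparc: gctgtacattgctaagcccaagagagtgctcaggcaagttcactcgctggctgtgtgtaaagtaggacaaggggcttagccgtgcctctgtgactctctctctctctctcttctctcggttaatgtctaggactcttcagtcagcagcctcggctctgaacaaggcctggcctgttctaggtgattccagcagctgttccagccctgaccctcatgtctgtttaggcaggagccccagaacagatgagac
Col6a1: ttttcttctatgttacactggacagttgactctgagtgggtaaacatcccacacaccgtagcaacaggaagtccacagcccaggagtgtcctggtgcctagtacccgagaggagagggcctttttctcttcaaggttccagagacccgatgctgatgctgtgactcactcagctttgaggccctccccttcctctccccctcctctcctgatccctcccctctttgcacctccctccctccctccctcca
Col5a1: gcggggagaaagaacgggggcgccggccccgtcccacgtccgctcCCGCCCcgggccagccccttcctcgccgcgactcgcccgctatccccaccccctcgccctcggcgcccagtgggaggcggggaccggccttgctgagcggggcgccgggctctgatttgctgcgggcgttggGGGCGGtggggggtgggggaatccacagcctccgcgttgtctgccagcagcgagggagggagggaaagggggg

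The 4 windows were unlike in these letters. Bgn had 3 GC boxes, of which 2 share letters, Col5a1 had 2, and Sparc and Col6a1 had none, and none of the 4 held a CCAAT or TATA box. The share of G and C was 64.4% for Bgn, 54.0% for Sparc, 56.0% for Col6a1 and 76.4% for Col5a1, against a median of 52.4% over the 250 bases before each start in RefSeq. Of the 41 genes, 27 had a window, and 20 of these held a GC box in at least 1 window, 11 a CCAAT box and 0 a TATA box. Counted by window, 21 of their 31 windows held a GC box, 11 a CCAAT box and 0 a TATA box. Motifs were counted in the same 250 bases before the start for every gene, and over all 32851 such stretches 32.7% held a GC box, 33.8% a CCAAT box and 12.4% a TATA box. A match to such letters is a description and no site of binding.

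The proteoglycan and glycoprotein genes were placed as follows. Bgn, the small leucine-rich proteoglycan biglycan, stood at 2.68, 1.09, 0.69 and 1.15 on arrays 1 to 4, which averages 1.50 ± 1.05 (SD, n = 3 pairs) on the log2 scale, or a 2.82-fold ratio. Array 1 was far above the other 3, and without pair 1 the mean was 0.90. Limma's adjusted p was 0.863, and with arrays 1 and 2 turned the mean was -0.65. Lum, the proteoglycan lumican of collagen fibrils, stood at 0.14, 0.14, 0.70 and 0.42 on arrays 1 to 4, with a mean of 0.37 ± 0.29. Turned, its mean was 0.23 ± 0.43, and as deposited it was higher where Cy5 was on high salt. Without pair 3 its mean was 0.21. Dcn, the fibril-binding proteoglycan decorin, was close to 0 with a mean of 0.13 ± 0.16 and a value of -0.20 on array 4.

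Sparc, a collagen-binding matricellular glycoprotein, had the smallest p of the 41. Its log2 ratios on arrays 1 to 4 were 1.44, 1.16, 0.72 and 0.95, with a mean of 1.07 ± 0.36 (SD, n = 3 pairs; limma adjusted p = 0.66) and a ratio of 2.10. All 4 arrays lay well above 0, the 2 with Cy3 on high salt highest, and turned the mean was -0.28. Fn1, fibronectin, the adhesive glycoprotein that cells assemble into fibrils, stood at 0.50, 0.21, 0.79 and 0.68 with a mean of 0.58 ± 0.18 (limma adjusted p = 0.70). Unlike Sparc it was highest on arrays 3 and 4. Turned, its mean was 0.17 ± 0.65, with arrays 1 and 2 then below 0. Sparcl1, a secreted relative of Sparc taken by the start of its symbol, was above 0 on all arrays at 0.19, 0.73, 0.43 and 0.28, with a mean of 0.38 ± 0.17.

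Among the 12 collagen chains outside types I and III, 3 were above 0 on all arrays and the other 9 lay near 0 on average. Col6a1, a chain of the beaded filaments that anchor cells to their surroundings, stood at 1.38, 1.65, 0.45 and 1.01 on arrays 1 to 4, averaging 1.05 ± 0.52 on the log2 scale (SD, n = 3 pairs; limma adjusted p = 0.863). Col5a1, a chain of the collagen V that starts collagen I fibrils, stood at 1.00, 1.99, 0.58 and 0.95 with a mean of 1.01 ± 0.45 (limma adjusted p = 0.832). Both were lowest on array 3 and highest on array 2, and with arrays 1 and 2 turned their means were -0.42 and -0.31. Col14a1, a collagen that sits on the surface of fibrils, had the narrowest spread of the 3, at 0.32, 0.42, 0.49 and 0.30 with a mean of 0.39 ± 0.088 (limma adjusted p = 0.71), and 0.038 when turned.

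Partner chains of these collagens did not show the same ratios. Col6a2, which assembles with the Col6a1 chain, had 1 clone at 0.042, -0.0044, -0.11 and -0.074 on arrays 1 to 4. Col5a2, the partner of Col5a1, had a mean of -0.0023 ± 0.33 over 2 clones. Whether the Col6a2 and Col5a2 spots carried signal is not known from ratios. Col2a1, Col6a4, Col7a1, Col23a1, Col24a1 and Col25a1, chains of cartilage, anchoring, transmembrane and other collagens, had means from -0.11 to 0.028.

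Col9a3, a chain of the cartilage collagen IX, stood apart by its dye. It read 1.79 and 1.89 on arrays 1 and 2 and -2.0 and -1.38 on arrays 3 and 4, so the 2 orientations opposed each other and the mean was 0.013 ± 1.91 (SD, n = 3 pairs). With arrays 1 and 2 turned, all 4 arrays lay below 0 and the mean was -1.81 (limma adjusted p = 0.081).

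Of the 14 basement membrane genes, 11 had a mean above 0 and 5 were above 0 on all arrays: Col4a1, Nid1, Nid2, Lamb1 and Col18a1. The mean over the 14 was 0.21 ± 0.042 (SD, n = 3 pairs). It was 0.17, 0.24, 0.20 and 0.27 on arrays 1 to 4, so as deposited it hardly differed between dye orientations, although single genes did. Nid1 and Nid2 are the nidogens that link laminin to collagen IV. Nid2 stood at 0.24, 0.61, 0.86 and 0.66 on arrays 1 to 4 with a mean of 0.58 ± 0.31 (limma adjusted p = 0.863). Nid1 stood at 0.17, 0.12, 0.65 and 0.65 with a mean of 0.40 ± 0.24. Both were higher with Cy5 than with Cy3 on high salt. Turned, the means were 0.22 ± 0.57 for Nid2 and 0.25 ± 0.41 for Nid1, with arrays 1 and 2 then below 0.

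Laminins are cross-shaped trimers of an alpha, a beta and a gamma chain. Lamc1, the gamma chain of most laminins, stood at 0.96, 1.22, -0.29 and 0.17 on arrays 1 to 4, a mean of 0.45 ± 0.66 (SD, n = 3 pairs) that was -0.59 when turned, 0.20 without pair 1 and 0.83 without pair 3. Its high values were both with Cy3 on high salt. Lamb1, a beta chain, was above 0 on all arrays but low, at 0.076, 0.29, 0.15 and 0.12, with a mean of 0.14 ± 0.066 over 5 clones. Lamb3, Lama3 and Lama5 had means of 0.30, 0.12 and 0.12 with at least 1 array below 0, and Lama1 and Lamb2, the latter a beta chain of adult muscle, lay at -0.0034 and -0.053. Hspg2, the heparan sulfate proteoglycan perlecan, stood at -0.004 ± 0.15, and Col18a1 at 0.024 ± 0.018.

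Col4a1 and Col4a2, the 2 chains of the main collagen IV network, are known to lie head to head and to share a promoter region. In RefSeq (GRCm38.p6) the 300-base windows around their starts, chr8:11312777-11313076 on the minus strand for Col4a1 and chr8:11312555-11312854 on the plus strand for Col4a2, overlapped by 78 bases, and the annotated starts lay 21 bases apart. Their ratios were not alike. Col4a1 stood at 0.53, 1.15, 0.36 and 1.08 on arrays 1 to 4 with a mean of 0.67 ± 0.40 (SD, n = 3 pairs; limma adjusted p = 0.863), or -0.067 when turned and 0.44 without pair 2. Col4a2, from 1 clone, stood at 0.067, -0.086, -0.048 and 0.21 with a mean of 0.027 ± 0.065. Col4a5, an X-linked chain of another collagen IV network, had a mean of 0.14 ± 0.28.

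The 3 Col4a1 clones differed among themselves. The first stood at 1.59, 1.56, 1.01 and 1.60 on arrays 1 to 4, the second at 1.69, 1.77, 0.24 and 1.30, and the third at -1.68, 0.11, -0.18 and 0.36. Their means were 1.39, 1.15 and -0.54, so the gene mean of 0.67, or 1.09 with the median over clones, averages 2 high clones with 1 that was at -1.68 on array 1 and between -0.18 and 0.36 on the others. The 3 Sparc clones, by contrast, were all above 0 on all arrays, with means of 1.50, 1.22 and 0.50. Both Fn1 clones were too, with means of 0.59 and 0.56. Of the 4 Lamc1 clones, 2 were above 0 on all arrays, with means of 0.51 and 0.45. The other 2 read 1.46, 1.32, -0.62 and 0.029, and 1.24, 2.34, -1.31 and -0.061, with the widest gaps between dye orientations. The first of the former 2 was also higher with Cy3, at 0.82 and 0.67, than with Cy5, at 0.24 and 0.29. Other genes above 0 on all arrays also had clones that were not. Above 0 on all arrays were 1 of 2 clones each for Mfap4, Lum and Col18a1, 2 of 3 for Nid1 and 1 of 5 for Lamb1. Both Mfap3 clones were above 0 on all arrays.

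**Figure D2:**
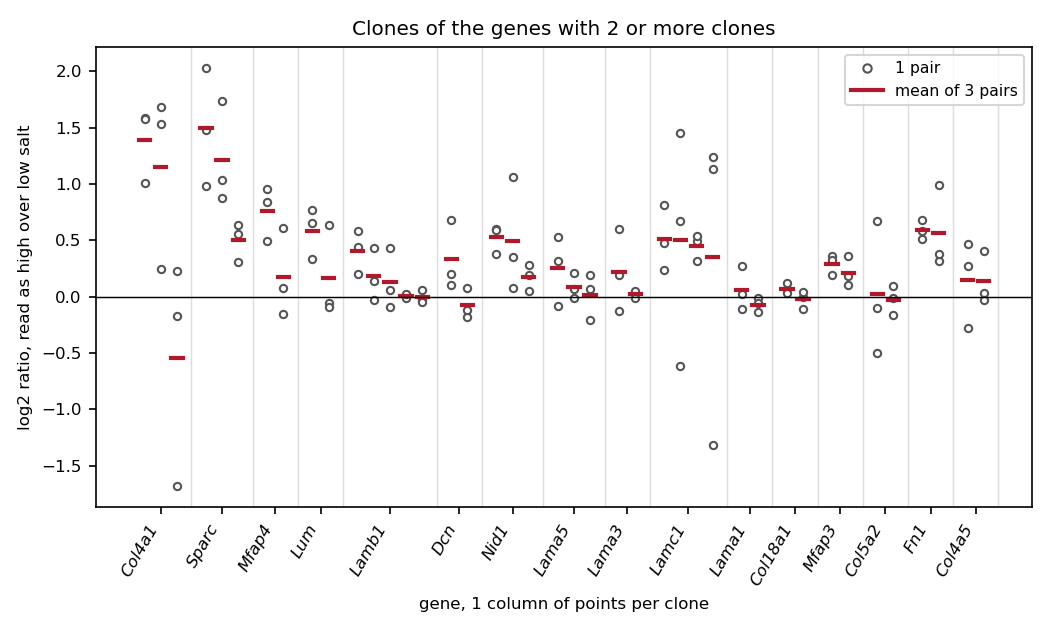
Log2 ratio (y axis, read as high over low salt) of each clone of the 16 genes with 2 or more clones (x axis, ordered by the distance between their clone means), with open points for the 3 pairs and a red bar for their mean. The means of the Col4a1 clones ran from -0.54 to 1.39, those of Sparc from 0.50 to 1.50 and those of Fn1 from 0.56 to 0.59.

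Over all 66 clones, 25 were above 0 on all 4 arrays, against 6.65% of the 16471 clones tested, and 0 were below 0 on all 4, against 6.76%. Their means ran from -0.54 to 1.50 with a median of 0.22. Limma called 0 clones of 16471 (0%). At an unadjusted p under 0.05, 21 of the 66 were higher and 0 lower, where 2.82% and 2.39% of all clones were, and the smallest adjusted p among the 66 was 0.833. Turned, 28 of the 66 clone means lay above 0 and 38 below, and 4 clones lay above and 10 below 0 on all arrays, where 13% and 16.8% of all clones did. At an unadjusted p under 0.05, 1 was then higher and 9 were lower, against 7.29% and 11.5% of all clones, and limma called 0. Clones of 1 gene share its transcript and are not separate evidence on salt.

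Collagen processing was covered by 3 genes, each from 1 clone. P4ha2, a prolyl hydroxylase subunit that stabilises the collagen helix, was above 0 on all arrays, at 0.57, 0.32, 0.31 and 0.049, averaging 0.36 ± 0.20 on the log2 scale (SD, n = 3 pairs; limma adjusted p = 0.863). Serpinh1, the collagen chaperone Hsp47, stood at 0.62, 1.23, -0.085 and 0.24 with a mean of 0.42 ± 0.44. Plod3, a lysyl hydroxylase and glycosyltransferase of collagen, stood at 1.11, 0.97, -0.67 and -0.20 with a mean of 0.27 ± 0.90. For the latter 2 the values with Cy3 on high salt were all above those with Cy5, and turned their means were -0.40 and -0.79. Without pair 3 they were 0.68 and 0.75.

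The 4 elastic fibre genes had means above 0, and in each the 2 arrays with Cy3 on high salt were the higher ones. Eln, elastin itself, stood at 0.59, 1.79, -0.91 and 0.28 on arrays 1 to 4 with a mean of 0.24 ± 1.02 (SD, n = 3 pairs). Mfap2, a microfibril glycoprotein, stood at 1.19, 1.49, -0.40 and -0.021 with a mean of 0.51 ± 0.82. Fbln2, a fibulin of elastic fibres and basement membranes, stood at 1.64, 0.63, -0.045 and -0.020 with a mean of 0.63 ± 0.89. Mfap4, a microfibril-binding glycoprotein, was the member above 0 on all arrays, at 0.78, 0.75, 0.17 and 0.16, with a mean of 0.47 ± 0.31 (limma adjusted p = 0.863). Its 2 clones had means of 0.76 and 0.18, and the second was at -0.15 on arrays 3 and 4. Without pair 1 the mean was 0.063 for Eln, 0.17 for Mfap2 and 0.13 for Fbln2. With arrays 1 and 2 turned their means were -0.75, -0.78, -0.67 and -0.30.

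Of the 2 genes matched by name, Mfap3 was above 0 on all arrays, at 0.23, 0.47, 0.18 and 0.21, with a mean of 0.25 ± 0.079 (SD, n = 3 pairs). Mfap1a stood at -0.42, -0.16, 0.079 and -0.079 with a mean of -0.15 ± 0.25. Without these 2 and Sparcl1, 29 of 38 genes had a mean above 0 and 14 were above 0 on all arrays.

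Set side by side as deposited, the subgroup means differed in how far apart they lay between dye orientations. Glycoproteins read 0.71, 0.70, 0.65 and 0.64 on arrays 1 to 4, and basement membrane genes, as given, also had like values on all arrays. Proteoglycans read 0.98, 0.45, 0.56 and 0.46, with pair 1 the highest through Bgn. Elastic fibre genes read 1.05 and 1.17 with Cy3 on high salt but -0.30 and 0.10 with Cy5. Collagen-processing genes read 0.77 and 0.84 against -0.15 and 0.029, and other collagens 0.40 and 0.51 against -0.10 and 0.031. Among the latter Col9a3 had the widest gap, at 1.84 against -1.69. In such means, genes with opposite gaps offset each other. Sign left out, the median gap of single genes was 0.38 for glycoproteins, 0.27 for basement membrane and 0.19 for other collagens. It was 1.34 for elastic fibre, 0.85 for collagen processing and 0.42 for proteoglycans, against 0.19 over all genes. The mean over the 3 pairs was 0.67 ± 0.032 for glycoproteins, 0.67 ± 0.28 for proteoglycans, 0.46 ± 0.69 for elastic fibre genes, 0.35 ± 0.47 for collagen processing and 0.19 ± 0.26 for other collagens. With n = 3 pairs these last 3 SDs exceed the means. With arrays 1 and 2 turned, their signs reverse in each subgroup. Glycoprotein and basement membrane values then opposed each other by dye orientation, with means of -0.032 and 0.017. Elastic fibre values were then below 0 on all arrays but array 4, with a mean of -0.63. No test was made of these differences, since the subgroups hold 2 to 14 genes picked with results known.

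**Figure D3:**
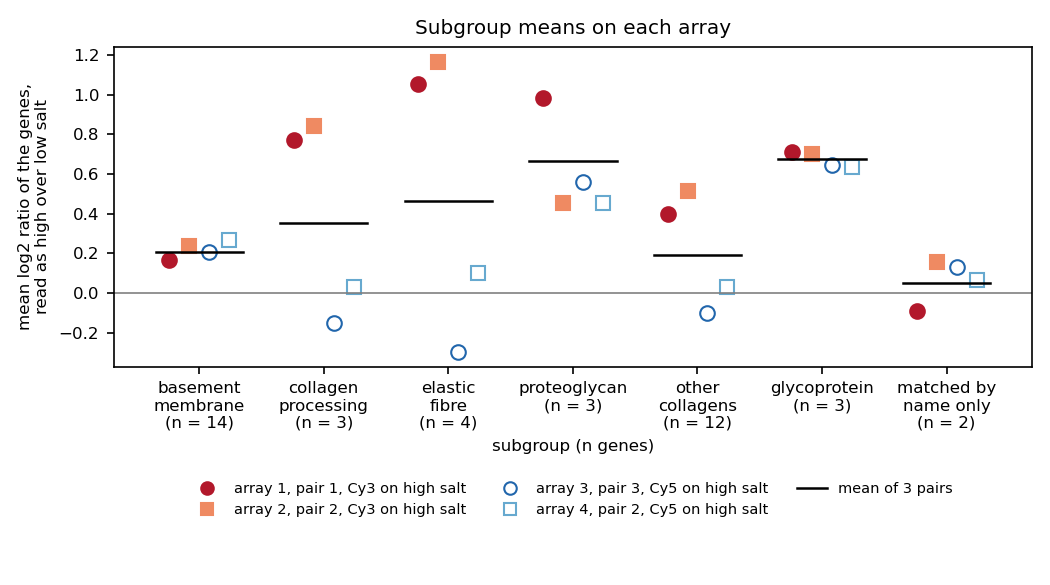
Mean log2 ratio (y axis, read as high over low salt) of the genes of each subgroup (x axis, with the number of genes) on the 4 arrays, with filled symbols for Cy3 and open symbols for Cy5 on high salt and a black line for the mean of 3 pairs. Glycoproteins lay between 0.64 and 0.71 on all arrays, while elastic fibre genes lay above 1 on arrays 1 and 2 and at -0.30 and 0.10 on arrays 3 and 4.

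Leaving out a pair shifted several of these means. The proteoglycan mean was 0.51 without pair 1 and 0.77 without pair 2. The elastic fibre mean was 0.84 without pair 3 and 0.17 without pair 1. The collagen-processing mean was 0.60 without pair 3 and 0.14 without pair 1, and that of other collagens was 0.34 and 0.085. When dye was added to the limma fit as a covariate, its term passed an adjusted p of 0.05 for 3 of the 41 genes, 7.32% against 5.13% of all genes: Col9a3 (1.89, adjusted p = 0.0217), Plod3 (0.89, adjusted p = 0.0276) and Mfap2 (0.80, adjusted p = 0.0478). In that fit pair 2 held both orientations, so the term set pair 1 against pair 3. Dye and the mice of these pairs cannot be told apart in it. Arrays split by orientation, with both Cy3 values on 1 side of 0 and both Cy5 values on the other, were seen for 10 of the 41 (24.4%), against 31.3% of all genes. Within pair 2, whose 2 arrays hold the same mice, 26 of the 41 genes (63.4%) had 1 sign on arrays 2 and 4 as deposited, against 45.0% of all genes. With array 2 turned these were 15 of the 41 (36.6%), against 55.0%.

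**Figure D4:**
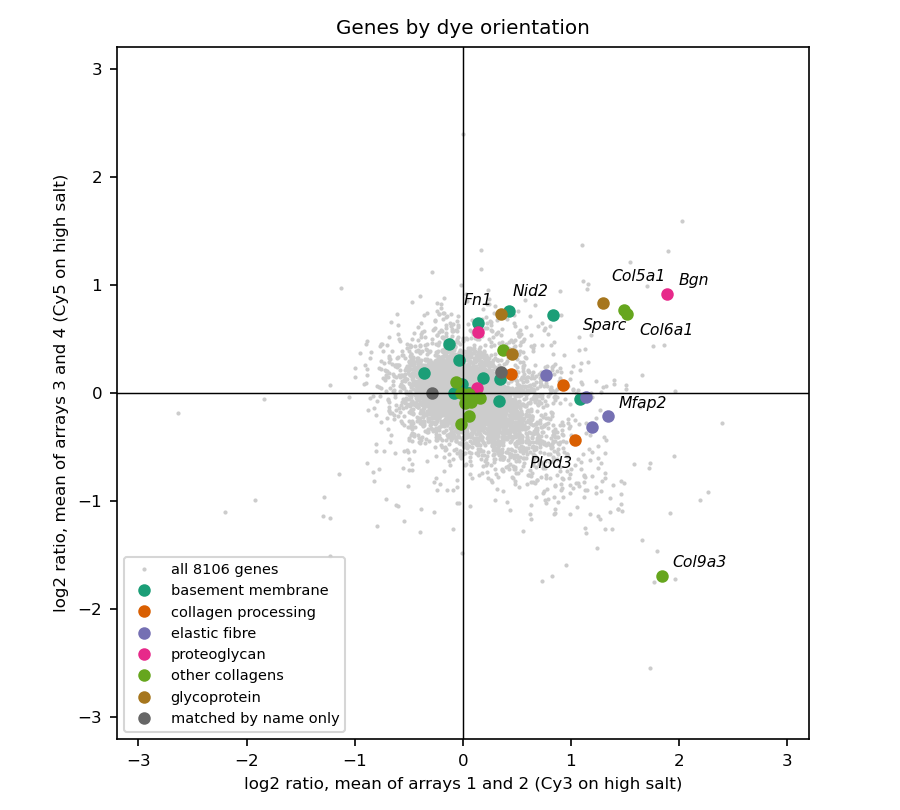
Mean log2 ratio of arrays 1 and 2 (x axis, Cy3 on high salt) against that of arrays 3 and 4 (y axis, Cy5 on high salt) for all 8106 genes in grey, of which 1 lies outside the axes, and for the 41 matrix genes coloured by subgroup. Bgn, Sparc, Col5a1 and Col6a1 lay in the upper right, above 0 in both orientations, and Col9a3 in the lower right at 1.84 and -1.69.

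Other genes of matrix assembly were taken from lists written for this purpose. Of 26 listed symbols of collagen maturation, older names of the same genes among them, 10 were measured, with a median log2 ratio of 0.065. Of these 8 lay above 0, 3 above 0 on all arrays and 0 below 0 on all. For this and the next 2 lists, the shares over all genes were 49.8%, 7.01% and 7.75%. Pcolce, which enhances removal of the procollagen tail, stood at 1.36, 0.79, 0.39 and 0.41 on arrays 1 to 4 with a mean of 0.78 ± 0.51 (SD, n = 3 pairs), and Crtap, part of a prolyl hydroxylase complex, at 0.17, 0.21, 0.28 and 0.22 with a mean of 0.22 ± 0.053. P3h3, a prolyl hydroxylase, had a mean of 0.23 ± 0.19. Turned, the means were -0.39 for Pcolce, 0.038 for Crtap and 0.0145 for P3h3. Of 28 matrix receptors 23 were measured, with a median of 0.063, 18 above 0, 4 above 0 and 1 below 0 on all arrays. Itgb1, the beta chain of most matrix-binding integrins, read 0.19, 0.17, 0.18 and 0.22 on the 4 arrays, a mean of 0.19 ± 0.0087, and its laminin-binding partner Itga6 had a mean of 0.27 ± 0.071. Sdc2, a heparan sulfate proteoglycan of the cell surface, stood at 0.15 ± 0.068. Turned, Itgb1 was at 0.0027, Itga6 at -0.072 and Sdc2 at 0.047.

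Of 40 listed symbols of other matrix proteins, an older name among them, 16 were measured, with a median of 0.081. Of these 13 lay above 0, 3 above 0 on all arrays and 0 below 0 on all. Mgp, an inhibitor of calcification, averaged 0.83 ± 0.41 on the log2 scale (SD, n = 3 pairs), Prelp, a leucine-rich repeat proteoglycan, 0.68 ± 0.48 and Vcan, the large proteoglycan versican, 0.58 ± 0.40, with 1 Vcan array below 0, at -0.020. Turned, these means were -0.11 for Mgp, -0.55 for Prelp and -0.10 for Vcan. Over all genes the median was -0.00026, and no gene of these 3 lists passed limma's adjusted threshold. At an unadjusted p under 0.05, 2 of 10, 2 of 23 and 3 of 16 were higher and none was lower, where 2.81% and 2.63% of all genes were. Turned, 0, 1 and 0 were higher and 2, 8 and 3 lower, where 6.97% and 13.8% of all genes were. With arrays 1 and 2 turned, the 3 medians were -0.064 for collagen maturation, -0.058 for receptors and -0.13 for other matrix proteins. Means above 0 were then 4 of 10, 7 of 23 and 3 of 16, against 46.7% of all genes.

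Markers of cells that ventricle pieces can hold also had ratios above and below 0, and their part in the matrix ratios was not tested. Of 9 fibroblast markers that are no member of the 41, 6 were measured and 4 had a mean above 0, with a median of 0.11. Among them the mesenchymal intermediate filament vimentin (Vim) stood at 0.81 ± 0.21 (SD, n = 3 pairs), Fstl1, a secreted glycoprotein, at 0.43 ± 0.14 and Ddr2, a collagen receptor, at 0.11 ± 0.19. Of the others Pdgfra stood at 0.11, Tcf21 at -0.041, below 0 on all 4 arrays, and Gsn at -0.046. Turned, Vim was at -0.13, Fstl1 at 0.0047 and Ddr2 at 0.11. Of 15 endothelial markers 8 were measured and 4 had a mean above 0, with a median of 0.065 and a range from -0.40 for Cldn5 to 0.60 for Cd34. Smooth muscle and pericyte markers had a median of 0.16 (5 of 11 measured, 4 above 0). Macrophage and leukocyte markers had 0.16 (4 of 15 symbols, older names among them, 3 above 0) and cardiomyocyte markers 0.054 (3 of 13, 2 above 0). Over all genes 49.8% of means lay above 0. The 2 measured epicardial markers, Wt1 and Msln, had means of -0.20 and -0.32, the 1 measured blood marker, Alas2, 0.0048, and none of the 4 atrial markers was measured. Turned, the fibroblast, endothelial and smooth muscle medians were -0.064, -0.076 and -0.16, the cardiomyocyte and macrophage medians were 0.13 and 0.0024, and the epicardial median was -0.53. Means above 0 were then 3 of 6 fibroblast, 2 of 8 endothelial and 1 of 5 smooth muscle markers. They were 2 of 3 cardiomyocyte, 2 of 4 macrophage, 0 of 2 epicardial and 0 of 1 blood markers, against 46.7% of all genes. Since ratios give no level, these markers could not be used to check that the tissue is ventricle.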

How the data were processed

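Ventricular RNA of 6 mice was compared on 4 two-colour arrays of printed cDNA clones. The authors deposited a single log ratio for each feature on an array, treated here as log2. The log base, background correction, normalization and direction were not given in the sources used here. Array medians of the deposited log2 ratios lay between -0.0062 and 0.010. Of 17664 features 457 had no value. Another 736, at 23 print positions that carry no gene name in any of the 32 print blocks, were left out of the clone fit. Symbols came from the platform annotation, in which 12563 features had 1 symbol, 412 several and 4689 none. All 41 gene IDs were found in RefSeq (GRCm38.p6). Of the clones with several symbols, 2 held a matching one and were not used.

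Clones were averaged per symbol, and arrays 2 and 4 per pair. The 3 pair values were fitted with an intercept in limma 3.58.1, R 4.3.3 (lmFit, eBayes, Benjamini-Hochberg over all genes or all clones). The fit was also run on simulated data, but the outcome is not given here and no result rests on it. With so few arrays, their number limits the precision. The genes and lists were chosen with earlier results of these data known. Every gene is named. Values on every array are given for genes with 1 sign on all 4 arrays (at most 4 a subgroup, by smallest p), the 2 of largest SD in each subgroup and every gene with a mean past 0.5. From each other list at most 3 genes were named, by smallest p. Col4a2, Col6a2, Pdgfra, Tcf21, Gsn and the clones of some genes were given in addition, after their values were seen. Alternatives were turned arrays, left-out pairs, single arrays of pair 2, centring, scaling, median over clones and a dye covariate.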

Additional observations from a re-analysis of the deposited data

How the results depend on the processing

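No alternative gave a gene or clone past limma's adjusted threshold, that is, turned arrays, each pair left out, either array of pair 2, centred or scaled arrays, the median over clones and the dye covariate for genes, and the left-out unnamed spots kept in for clones. The fit with pair as a random block was not run, since 3 pairs on 4 arrays gave no correlation estimate. The test is itself one of pairs, and with 1 group of arrays no further block was added.

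With arrays 1 and 2 turned, 13 of the 41 genes had a mean above 0, 1 reached an unadjusted p under 0.05 upward and 6 downward, and 3 lay above and 7 below 0 on all arrays. Subgroup means were then 0.017 for basement membrane, -0.44 for collagen processing, -0.63 for elastic fibre, -0.14 for proteoglycans, -0.25 for other collagens and -0.032 for glycoproteins. The 24 genes whose mean changed sign when turned were Col4a1 (-0.067), Lamc1 (-0.59), Lamb3 (-0.085), Lamb1 (-0.0031), Lama5 (-0.18), Col18a1 (-0.021), Hspg2 (0.054), Lamb2 (0.24), Serpinh1 (-0.40), P4ha2 (-0.13), Plod3 (-0.79), Fbln2 (-0.67), Mfap2 (-0.78), Mfap4 (-0.30), Eln (-0.75), Bgn (-0.65), Dcn (-0.0061), Col6a1 (-0.42), Col5a1 (-0.31), Col7a1 (-0.082), Col9a3 (-1.81), Sparc (-0.28), Mfap3 (-0.060) and Mfap1a (0.18).

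The glycoprotein mean was 0.72 with the median over clones and 0.82 without Sparcl1. The median over clones also moved Col4a1 to 1.09, Lamb1 to 0.058 and Lama5 to 0.026. With 1 pair left out the count of genes higher at an unadjusted p under 0.05 ran from 7 to 13. Genes whose mean then changed sign ranged from -0.071 to 0.037 (Lama1), -0.18 to 0.015 (Lamb2), -0.15 to 0.75 (Plod3), -0.87 to 1.02 (Col9a3), -0.078 to 0.071 (Hspg2), -0.16 to 0.81 (Eln), -0.031 to 0.076 (Col7a1), -0.19 to 0.080 (Col23a1), -0.0023 to 0.28 (Col4a5), -0.037 to 0.077 (Col24a1), -0.044 to 0.049 (Col6a4), -0.17 to 0.16 (Col5a2), -0.024 to 0.013 (Col25a1), -0.076 to 0.0012 (Col6a2) and -0.18 to 0.013 (Col2a1).

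With pair 2 from array 2 alone, Lama3 (-0.048), Col4a2 (-0.022), Lama1 (0.012), Col6a4 (0.0033) and Col23a1 (0.038) changed sign. From array 4 alone, Hspg2 (0.0011), Lamb2 (0.063), Eln (-0.012), Col7a1 (-0.030), Col9a3 (-0.53), Col5a2 (0.054) and Col25a1 (0.0093) did. With scaled arrays Col6a4 (0.0040) and Col5a2 (0.041) did. The causes were not tested. Centring changed no sign. The dye covariate could change no mean, since the 3 pairs were coded evenly around 0. No depth or signal over background is known for these ratios.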
